A study of Mus musculus with 12 samples.

Results

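The genes described here encode the proteins of the mitochondrial ribosome, in mouse oocytes with or without the gene for RNase H1. They were chosen by name alone: every gene of the deposited table whose symbol begins with Mrpl or Mrps followed by a digit, with symbols marked as pseudogenes left out. The rule found 78 of the 25162 genes in the table. By the protein's place in the ribosome, 51 belong to the large subunit and 26 to the small subunit. The remaining gene, Mrps36, carries a ribosomal name, but its protein is now known as a component of the 2-oxoglutarate dehydrogenase complex. Of the 78, 75 averaged 1 FPKM or more over the table's columns and were compared between groups, as were 10110 genes in all. The other 3, Mrpl19, Mrpl52 and Mrpl57, are given by their levels.

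The study measured polyadenylated RNA of mouse oocytes by Smart-seq2, a method that amplifies full-length cDNA from very few cells. The control, WT in the labels, carries floxed Rnaseh1 alleles (fl/fl in the table), and the KO carries the oocyte deletion (oo-/-), so all groups have the floxed or deleted gene. Neither the Cre line behind the deletion nor the age of the mice is given in the sources used here. Each genotype was sampled at 3 stages named NGO, GO and FGO, names that the labels leave as abbreviations and that in this field usually mean the non-growing, growing and fully grown oocyte. The labels list 12 samples, 2 for each of the 6 combinations. A sample was 10 oocytes, lysed together with 100 pg of ERCC RNA as a spike-in. The deposited table holds 1 column of spike-in adjusted FPKM for each combination, with no statement of whether it is a mean, a pool or a single sample. Replicate error could therefore not be computed for any value, and no SD, n or p is given. FPKM is a count of fragments divided by transcript length and sequencing depth, here rescaled by the authors to the spike-in, so that it stands for RNA per spike-in rather than for a share of the library.

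Mitochondrial ribosomes translate the few proteins encoded by mitochondrial DNA, all of them subunits of the oxidative phosphorylation complexes. Their RNA comes from mitochondrial DNA, but every one of their proteins is encoded in the nucleus, made on cytosolic ribosomes and imported. Many of these proteins have a bacterial counterpart and others are specific to mitochondria, and oocytes multiply their mitochondria many-fold while they grow. RNase H1 cuts RNA that is paired with DNA. It acts in the nucleus on R-loops and in mitochondria, where it is needed to replicate mitochondrial DNA.

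The members lie on 17 chromosomes, and their promoters share short motifs. RefSeq promoters (GRCm38.p6, the assembly also called mm10, from 250 bases before to 50 bases after the transcription start) were found for 69 of the 78 members, with 75 promoters in all. The ETS core CCGGAAG, searched on both strands (CTTCCGG on the other), is the binding motif of the ETS family, which includes the mitochondrial gene regulator GABPA. It stood in 34.7% of the members' promoters, against 8.86% of all 32851 promoters and 18.9% of the promoters of genes compared. The NRF1 motif, GC-rich with 1 free base and searched on both strands too, belongs to another regulator of nuclear genes for mitochondria. Capitals below show it, in Mrpl12 as it reads on the other strand. It stood in 17.3% of the members' promoters, against 4.60% and 11.0%. The YY1 core ATGGCGG stood in 17.3%, against 4.05% and 8.42%. The GC-rich box GGGCGG of SP1 was at 52%, against 35.7% and 61.8%. The CCAAT box (CCAAT), the TATA box (TATAAA) and the E-box (CACGTG) stood in 40%, 6.67% and 9.33%, against 39.3%, 7.23% and 10.2% of the promoters of genes compared. None of these motifs contains another, and they are matches of letters and not measured binding sites.

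Stretches of 7 promoters are shown because their genes carry the contrasts described below. The first 4 hold the ETS core, in capitals: Mrps18c and Mrpl34, among the 10 members with the lowest KO minus WT difference at GO, and Mrps26 and Mrpl43, whose KO to WT ratio was among the highest at FGO. The last 3 hold the NRF1 motif, in capitals: Mrpl9 and Mrpl44, which stood higher in KO at GO, and Mrpl12, the member with the second highest level. These are picked examples and do not tie a motif to a direction. The Mrps26 promoter holds the NRF1 motif as well, and so does that of Mrpl14, whose KO minus WT difference at GO was -0.65. Differences were not compared between members with and without the NRF1 motif. Each is written 5′ to 3′ on the strand of its gene, from RefSeq on GRCm38.p6.
Mrps18c: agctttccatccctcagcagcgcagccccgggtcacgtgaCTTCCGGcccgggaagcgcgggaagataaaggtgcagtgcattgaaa
Mrpl34: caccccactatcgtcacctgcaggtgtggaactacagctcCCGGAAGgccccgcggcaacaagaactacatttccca
Mrps26: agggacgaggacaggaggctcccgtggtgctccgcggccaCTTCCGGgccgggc
Mrpl43: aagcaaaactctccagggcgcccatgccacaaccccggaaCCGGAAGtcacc
Mrpl9: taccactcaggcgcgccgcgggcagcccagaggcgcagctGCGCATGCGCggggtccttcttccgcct
Mrpl44: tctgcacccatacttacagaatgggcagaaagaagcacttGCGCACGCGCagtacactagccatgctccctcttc
Mrpl12: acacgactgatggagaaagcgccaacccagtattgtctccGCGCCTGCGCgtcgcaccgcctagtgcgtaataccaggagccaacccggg
The stretches lie at chr5:100798563-100798649 on the plus strand, chr8:71464849-71464925 on the plus strand, chr2:130563703-130563756 on the plus strand, chr19:45006443-45006494 on the minus strand, chr3:94443268-94443335 on the plus strand, chr1:79775943-79776017 on the plus strand and chr11:120484516-120484605 on the plus strand. The motif ends 5 to 149 bases before the start of transcription, nearest in Mrpl43 and farthest in Mrps18c.

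The labelled cell type and the targeted gene were checked first. All 12 oocyte markers, among them Gdf9, Zp3 and Ddx4, were above 1 FPKM in every column. Rnaseh1 was at 8.61, 27.8 and 29.1 FPKM in WT at NGO, GO and FGO, and at 0.931, 3.10 and 8.02 FPKM in KO, which is 10.8%, 11.2% and 27.6% of WT. The 12 granulosa markers summed to 2.84, 16.98 and 36.0 FPKM in WT and to 4.77, 14.2 and 78.6 FPKM in KO. At FGO, 5 of the 12 were at 1 FPKM or more in WT and 8 in KO. Highest in KO FGO were Esr2 (21.3 FPKM in WT and 37.3 in KO), Cyp19a1 (6.16 and 10.4), Inha (1.17 and 9.32) and Gja1 (0.965 and 6.96). Only Foxl2 and Inhba were lower in KO than in WT at FGO. Amh and Foxl2 stayed below 0.5 in every column, and Foxl2 was at 0 in KO FGO. The part of granulosa cells in the FGO values was not tested. Sums were 0.443 to 4.48 FPKM over 6 theca and stroma markers and 0.683 to 16.6 FPKM over 7 immune, endothelial and blood markers, with Pecam1 the highest of the latter at GO and FGO. The summed FPKM of all genes in KO was 0.842, 0.925 and 1.58 of WT at NGO, GO and FGO, and although the labels give the same number of oocytes for each sample, in bulk samples a change in the number of cells of a type and a change in RNA per cell cannot be told apart.

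Mitochondrial ribosomal protein genes were expressed at every stage, and their levels were higher at GO than at NGO. The median member stood at 11.6, 24.4 and 29.7 FPKM in WT at NGO, GO and FGO, against 3.70, 9.47 and 9.48 FPKM for the median gene compared. In KO it stood at 9.45, 19.8 and 41.8 FPKM. The members' summed FPKM was 1405, 3306 and 4187 in WT and 1066, 2430 and 5666 in KO, so the KO sum lay below WT at the earlier stages and above it at FGO. As a share of the FPKM of all genes, the sum was 0.896%, 0.860% and 0.908% in WT and 0.807%, 0.683% and 0.777% in KO. The share was thus lower in KO at all 3 stages, also at FGO, where the members' FPKM was higher.

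The levels ranged widely between members. Mrpl24, whose bacterial counterpart L24 starts the assembly of the large subunit, had the highest mean, with 117, 280.3 and 419 FPKM in WT and 103, 202 and 532 FPKM in KO. Mrpl12 followed, with 92.0, 293 and 321 FPKM in WT and 64.6, 198 and 478 FPKM in KO. Its protein forms the stalk that brings translation factors to the ribosome. Mrpl2, which lies near the peptidyl transferase centre, and Mrps33, a protein of the small-subunit head that bacteria lack, came next. At the other end, Mrpl52 was at 0.0673, 0 and 0.576 FPKM in WT and at 0.0737, 0 and 0 in KO. Mrpl19 was between 0.481 and 0.945 FPKM, and Mrpl57 between 0.386 and 1.73 FPKM. These 3 belong to the large subunit, as do the 3 members with the highest means. Levels are per length of the authors' transcript models, and genes with annotated copies are the least certain.

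**Figure D1:**
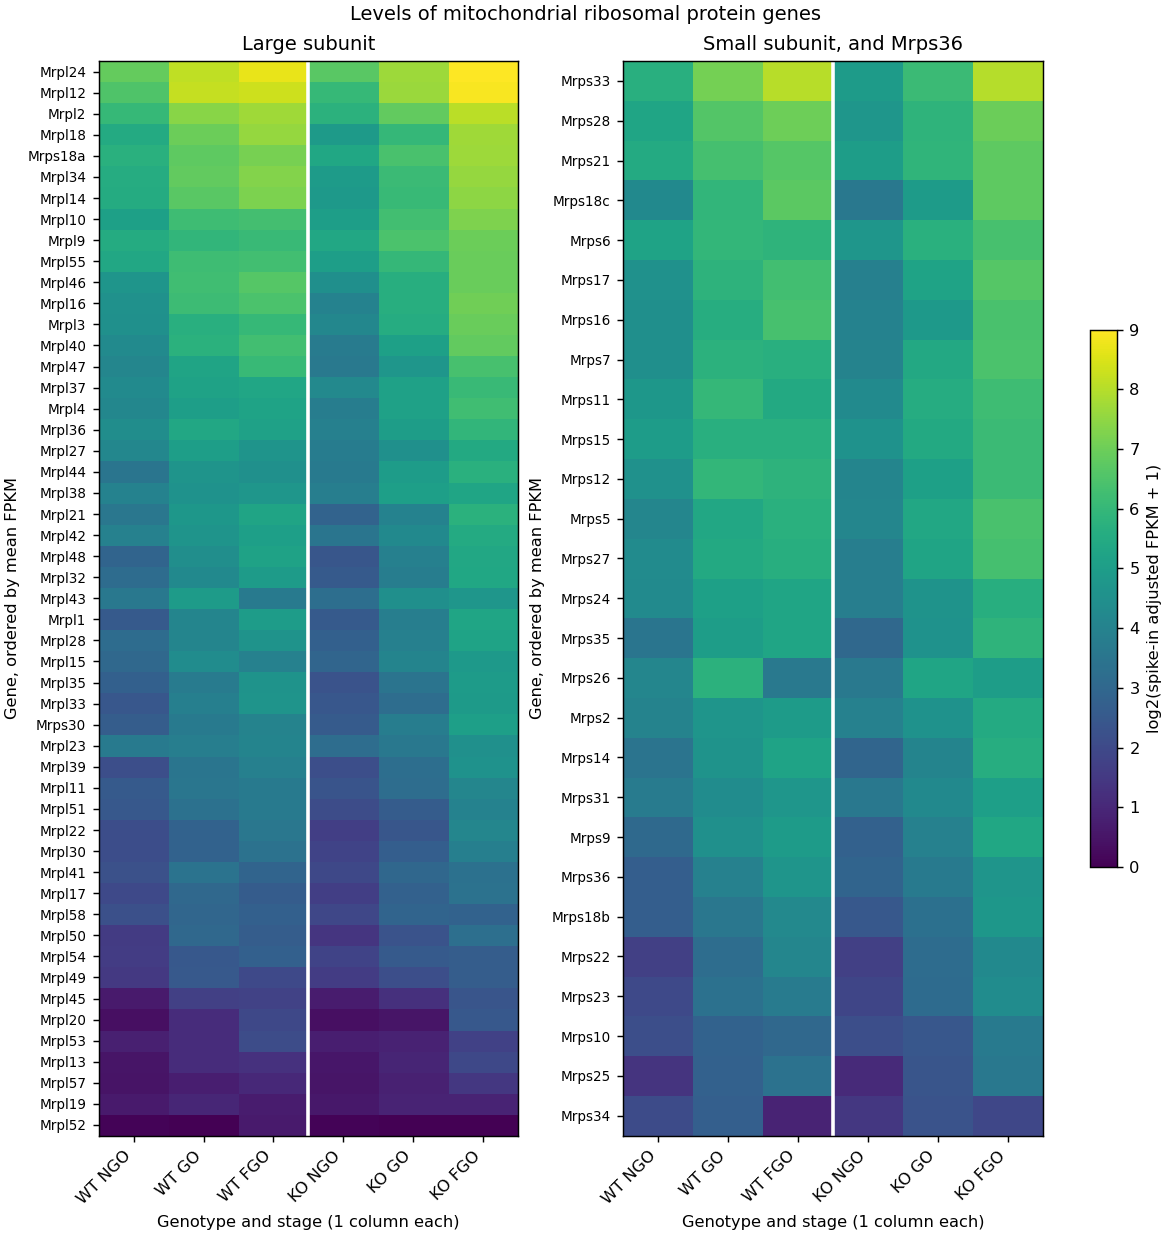
Level of each of the 78 mitochondrial ribosomal protein genes in the 6 columns, as log2(FPKM + 1) by colour. Genes are in rows, ordered by mean FPKM within the large subunit (left) and the small subunit with Mrps36 (right), and the white line divides WT from KO. In most rows the colour brightens from NGO to FGO in both genotypes. Mrps26, Mrps34 and Mrpl43 are darker at WT FGO than at WT GO.

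The median small-subunit gene had a higher level than the median large-subunit gene in every column, for example 17.6 against 8.08 FPKM in WT NGO and 63.0 against 38.3 FPKM in KO FGO. The summed FPKM of large-subunit genes divided by that of small-subunit genes was 1.93, 1.97 and 2.01 in WT and 2.10, 2.15 and 2.28 in KO, so the KO value was the higher at each stage. Of the 3 genes named after bacterial S18, only Mrps18c is classed here as its counterpart. Mrps18a, whose protein sits in the large subunit, was at 51.7, 107 and 142 FPKM in WT. Mrps18c was at 18.4, 60.3 and 106 FPKM and Mrps18b at 5.52, 10.8 and 18.03 FPKM, an order that held in all 6 columns.

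Differences between groups were taken on the log2(FPKM + 1) scale, which understates the change of low genes, and a gene was called higher or lower at a difference of 1 or more, that is at 2-fold. From NGO to GO in WT, 48 of the 75 members were called higher and 0 lower, beside 54.8% and 0.129% of all genes compared. The members' median difference was 1.14, and that of all genes was 1.06. In KO, 45 members were called higher and 0 lower over the same step (57.6% and 0.089% of genes), with a median of 1.09 against 1.10. Rescaled, the members' medians were -0.08 in WT and -0.19 in KO, against -0.01 and -0.02 for all genes. Below 0 were then 46 of the 75 in WT and 61 in KO, beside 5104 and 5225 of the 10110 genes compared. The members' summed FPKM at GO was 2.28 times that at NGO in KO, where the sum of all genes was 2.69 times. As deposited, every one of the 75 was higher at GO than at NGO in both genotypes. So were 9791 of the 10110 genes compared in WT and 9903 in KO, so nearly all genes shared this direction. Mrpl12 (1.66), Mrps18c (1.66) and Mrps26 (1.65) differed most in WT. Mrpl23, a protein at the exit of the polypeptide tunnel, differed least in WT, at 0.15.

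From GO to FGO the genotypes parted. In WT, 0 members were called higher and 3 lower, Mrps26, Mrps34 and Mrpl43 (6.5% and 9.22% of genes). In KO, 48 were called higher and 0 lower (39% and 0.514% of genes). The members' median difference was 0.31 in WT and 1.13 in KO, against 0.08 and 0.84 for all genes, so in both genotypes it lay above the median gene. A median-ratio scaling, which sets the typical gene equal in all columns and is called rescaled below, gave 0.29 and 0.37. In WT, 58 of the 75 members were higher at FGO than at GO by any amount (55% of genes) and 17 lower (45%). The same 58 were higher in KO, 14 were lower in WT and higher in KO, and Mrpl58, Mrps26 and Mrps34 were lower in both. The mixed pattern of lower in WT and higher in KO covered 18.7% of the members and 34.9% of genes compared. Across the 75 members the WT and KO differences had Pearson r = 0.80 and Spearman rho = 0.79 (0.81 and 0.83 across genes compared), a description over genes of the same 4 columns.

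**Figure D2:**
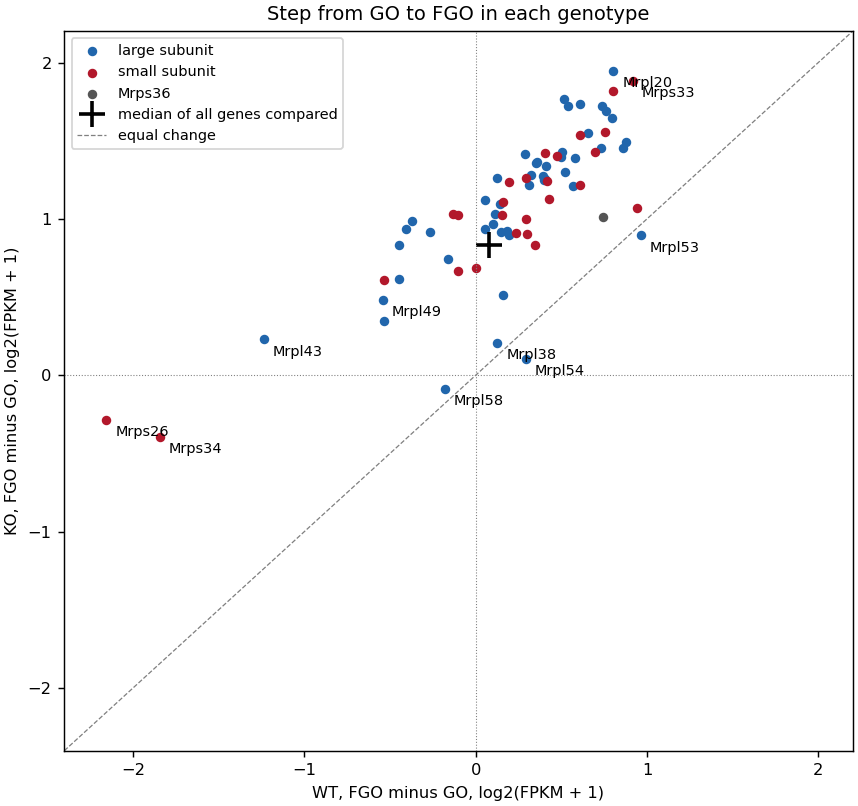
Difference from GO to FGO of the 75 members compared, in WT on the horizontal axis and in KO on the vertical axis, both in log2(FPKM + 1). Points are genes coloured by subunit, the cross is the median of all genes compared (0.08 and 0.84) and the dashed line marks equal change. Nearly all points lie above the line. Mrps26 and Mrps34 lie at the lower left, with Mrpl43 nearest to them.

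Against the control, members were lower in KO at NGO. Of the 75, 65 had a lower value in KO by any amount and 10 a higher one, where 70.1% and 29.6% of all genes compared did. At 2-fold, 0 were called higher and 0 lower, beside 0.0297% and 0.326% of genes. The members' median difference was -0.36, against -0.11 for all genes, and rescaled it was -0.21. With the 3 low members included it was -0.34.

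At GO, 67 of the 75 members were lower in KO by any amount and 8 higher, where 58.3% and 41.7% of genes were. Again 0 were called higher and 0 lower, beside 0.95% and 2.03% of genes. The median difference was -0.40 against -0.09, rescaled -0.33, and -0.39 over all 78. Of the 75, 64 lay below the median of all genes at GO, as did 55 at NGO.

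At FGO the sign was reversed in the values as deposited. Here 70 of the 75 members were higher in KO by any amount and 5 lower, Mrpl53, Mrpl54, Mrps28, Mrps33 and Mrps36, where 95.4% and 4.56% of genes were. Called higher were 6, Mrpl4, Mrpl43, Mrpl44, Mrps26, Mrps30 and Mrps34, and 0 were called lower, beside 25.8% and 0.158% of genes. The members' median was 0.50 against 0.72 for all genes, and 59 members lay below that median. Rescaled, the members' median was -0.24, so its direction at FGO depends on whether the spike-in scale or the typical gene is the reference. Relative to the typical gene, the members' median was lower in KO at all 3 stages.

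After rescaling, 0 members were called in either direction between KO and WT at any stage. Of genes compared, 0.129% were then called higher and 0.356% lower at NGO, 1.05% and 1.28% at GO, and 1.68% and 0.94% at FGO. From NGO to GO, 0 members were called higher in either genotype and Mrpl23 alone was called lower, in WT, beside 6.06% and 3.27% of genes in WT and 5.37% and 2.59% in KO. From GO to FGO in WT, 0 were called higher and the same 3 as before lower (5.78% and 8.33%). In KO, Mrpl20 and Mrps33 were called higher and Mrps26 lower (6.42% and 3.66%). Mrpl20, an early-assembling large-subunit protein in bacteria, was at 0.301, 1.22 and 2.88 FPKM in WT and at 0.303, 0.430 and 4.52 FPKM in KO, near the filter on low values.

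**Figure D3:**
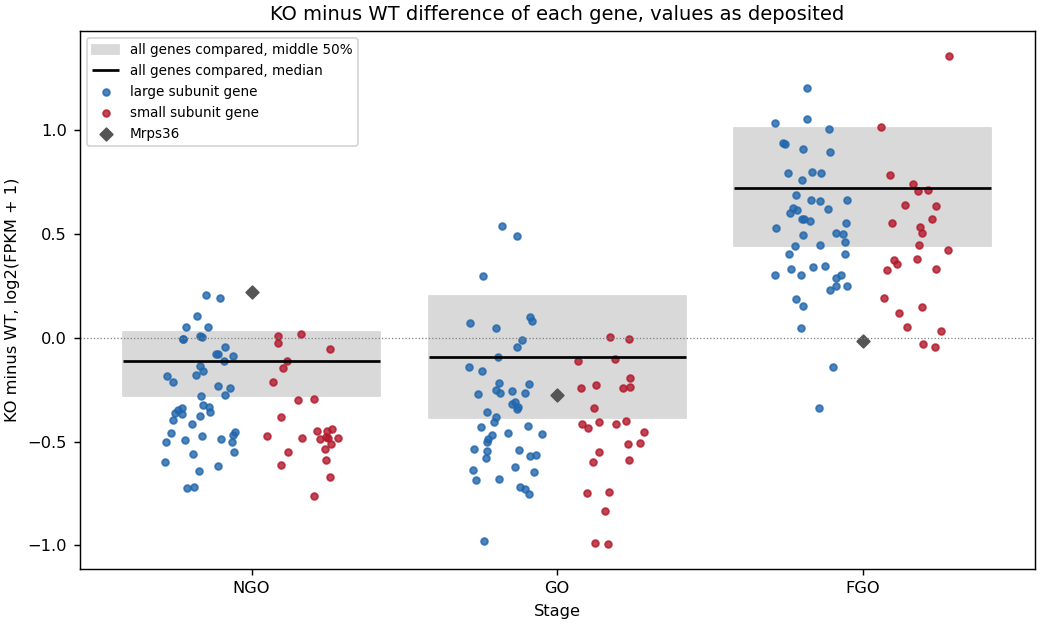
KO minus WT difference of each of the 75 members compared at NGO, GO and FGO, in log2(FPKM + 1) as deposited. Points are genes, blue for the large and red for the small subunit, with Mrps36 as a diamond, spread sideways for visibility. The black line and grey box are the median and middle 50% of all genes compared. Most points lie below the black line at each stage and below 0 at NGO and GO.

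The pattern of lower in KO at NGO and GO and higher at FGO was shown by 56 of the 75 members, or 74.7%, and by 44.0% of genes compared. Below the all-gene median at all 3 stages were 42 members, or 56%, and 24.1% of genes. Above it at all 3 stages were 4, namely Mrpl10, Mrpl37, Mrpl44 and Mrps30. Lower in KO at all 3 stages were Mrpl53, Mrps28 and Mrps33, and higher at all 3 was Mrpl44. The share of all genes above that median, lower or higher at all 3 stages was not computed, so these members are only listed. Members' differences at NGO and GO, which share no column, had r = 0.56 and rho = 0.57 across the 75 genes (0.43 and 0.44 across genes compared), those at GO and FGO r = 0.40 and rho = 0.43 (0.52 and 0.58), and those at NGO and FGO r = 0.11 and rho = 0.20 (0.23 and 0.25).

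The members with the lowest KO minus WT differences at GO encode proteins of both subunits. Mrps33 was at 50.4, 139 and 263 FPKM in WT and at 29.3, 69.1 and 257.5 FPKM in KO. It differed by -0.76 at NGO, by -0.995 at GO, short of a call on the log2(FPKM + 1) scale though its FPKM ratio was 0.498, and by -0.03 at FGO. As deposited, the KO value was thus well below WT at the earlier stages and level with it at FGO. Mrps18c, the S18 counterpart that sits in the small subunit, followed the same course, with 18.4, 60.3 and 106 FPKM in WT and 11.2, 29.9 and 108 FPKM in KO, and differences of -0.67, -0.99 and 0.03. Mrpl18, the L18 counterpart of the central protuberance, was at 44.3, 124 and 189 FPKM in WT and at 28.9, 62.4 and 210.2 FPKM in KO, with differences of -0.60, -0.98 and 0.15. In these 3 genes the FPKM ratio of KO to WT at GO was 0.498, 0.495 and 0.504, and at FGO it was 0.979, 1.02 and 1.11. After rescaling, their differences at FGO were -0.82, -0.75 and -0.63, so that KO is level with WT at FGO on the spike-in scale and not relative to the typical gene.

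Mrps12, the counterpart of bacterial S12 at the decoding centre, was at 22.2, 60.9 and 55.5 FPKM in WT and at 16.0, 33.7 and 69.9 FPKM in KO. It differed by -0.84 at GO and by 0.33 at FGO. Mrpl21 and Mrpl14, which have bacterial counterparts too, differed by -0.73 and -0.72 at NGO and by -0.75 and -0.65 at GO. Mrps28, counterpart of bacterial S1, was at 38.1, 95.01 and 128 FPKM in WT and at 25.6, 56.3 and 124 FPKM in KO, below WT at every stage.

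A few members went the other way at GO. Mrpl9, counterpart of the bacterial L9 at the base of the L1 stalk, was at 45.5, 59.8 and 66.8 FPKM in WT and at 41.4, 87.2 and 125 FPKM in KO. Its differences were -0.13, 0.54 and 0.90, so that GO was the stage at which it left the other members. Mrpl38, a protein near the central protuberance, was at 15.1, 23.3 and 25.6 FPKM in WT and at 13.4, 33.2 and 38.5 FPKM in KO, with a difference of 0.49 at GO. Mrpl44, which has the fold of a ribonuclease III, was at 10.3, 24.4 and 21.7 FPKM in WT and at 11.9, 30.2 and 51.2 FPKM in KO. It differed by 0.19, 0.30 and 1.203, and its KO level at FGO was 2.36 times that of WT.

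Members whose proteins have unusual places varied in both directions. Mrps30, named as a small-subunit protein but found in the large subunit, was at 5.27, 12.03 and 15.3 FPKM in WT and at 4.95, 13.0 and 32.9 FPKM in KO, and was called higher at FGO (1.06). Mrpl58, a peptidyl-tRNA hydrolase built into the large subunit, was at 3.57, 6.76 and 5.85 FPKM in WT and at 2.77, 6.53 and 6.09 FPKM in KO. As deposited, the genotypes were thus nearly level from GO on. Mrps36 was at 5.38, 14.4 and 24.8 FPKM in WT and at 6.42, 11.7 and 24.6 FPKM in KO. Its difference at NGO, 0.22, was the highest of the 75, and at FGO it was -0.01. After rescaling, the differences of Mrpl58 and Mrps36 at FGO were -0.57 and -0.75, so both were level with WT there on the spike-in scale only.

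The 3 members called lower from GO to FGO in WT, which are also 3 of the 6 called higher in KO at FGO, stood apart from the rest. Mrps26, a small-subunit protein without a bacterial counterpart, was at 16.6, 54.3 and 11.4 FPKM in WT and at 11.5, 37.8 and 30.9 FPKM in KO. Its WT level fell by 2.15 on the log2 scale from GO to FGO, and its KO difference over that step was -0.29. Mrps34, another small-subunit protein that bacteria lack, was at 3.14, 5.69 and 0.863 FPKM in WT and at 1.75, 3.94 and 2.76 FPKM in KO. It fell by 1.84 in WT, and its KO difference was -0.39. Mrpl43 of the large subunit was at 11.0, 29.9 and 12.1 FPKM in WT and at 8.54, 21.4 and 25.3 FPKM in KO. It fell by 1.24 in WT and differed by 0.23 in KO. All 3 remained below -1 in WT after rescaling (-2.15, -1.70 and -1.24), and their KO to WT differences at FGO were then 0.59, 0.42 and 0.25.

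In the GENCODE M21 annotation these 3 genes overlap others in their exons. Nothing in the labels says that the libraries kept the strand of the RNA, so reads of 2 overlapping genes may have been shared between them. Mrpl43 (chr19:45005014-45006442, minus strand) overlaps Twnk, which encodes the helicase that unwinds mitochondrial DNA, on the opposite strand. Twnk was at 25.2, 64.3 and 24.7 FPKM in WT and at 19.2, 47.1 and 61.8 FPKM in KO, with the same peak at WT GO as Mrpl43. Mrps34 (chr17:24895120-24896289, plus strand) overlaps Mapk8ip3 on the opposite strand and Nme3 on the same strand. Mapk8ip3, which encodes a scaffold of the JNK pathway, was at 1.75, 3.54 and 1.78 FPKM in WT and at 2.13, 3.35 and 3.65 FPKM in KO, with its WT peak at GO as in Mrps34. A transcript of Mapk8ip3 also matches the Mrps34 transcript. Nme3, a nucleoside diphosphate kinase gene, was highest at FGO in both genotypes, with 7.61 FPKM in WT and 8.05 FPKM in KO. Mrps26 (chr2:130563757-130565394, plus strand) overlaps the gene 4930473A02Rik on the opposite strand. This gene was at 1.29, 4.19 and 2.85 FPKM in WT and at 0.563, 3.66 and 5.30 FPKM in KO. It was lower than Mrps26 in every column, with its WT peak at GO as in Mrps26.

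A pair of members also start head to head. Mrpl46 (chr7:78775341-78783089, minus strand), of the central protuberance, and Mrps11 (chr7:78783131-78792988, plus strand), of the small-subunit platform, do not overlap in RefSeq, but their GENCODE M21 exons overlap. Mrpl46 was at 25.2, 74.4 and 98.0 FPKM in WT and at 21.1, 49.5 and 121 FPKM in KO. Mrps11 was at 26.1, 62.7 and 42.9 FPKM in WT and at 18.9, 47.1 and 72.5 FPKM in KO. From GO to FGO in WT the neighbours differed by 0.39 and -0.54, in opposite directions.

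**Figure D4:**
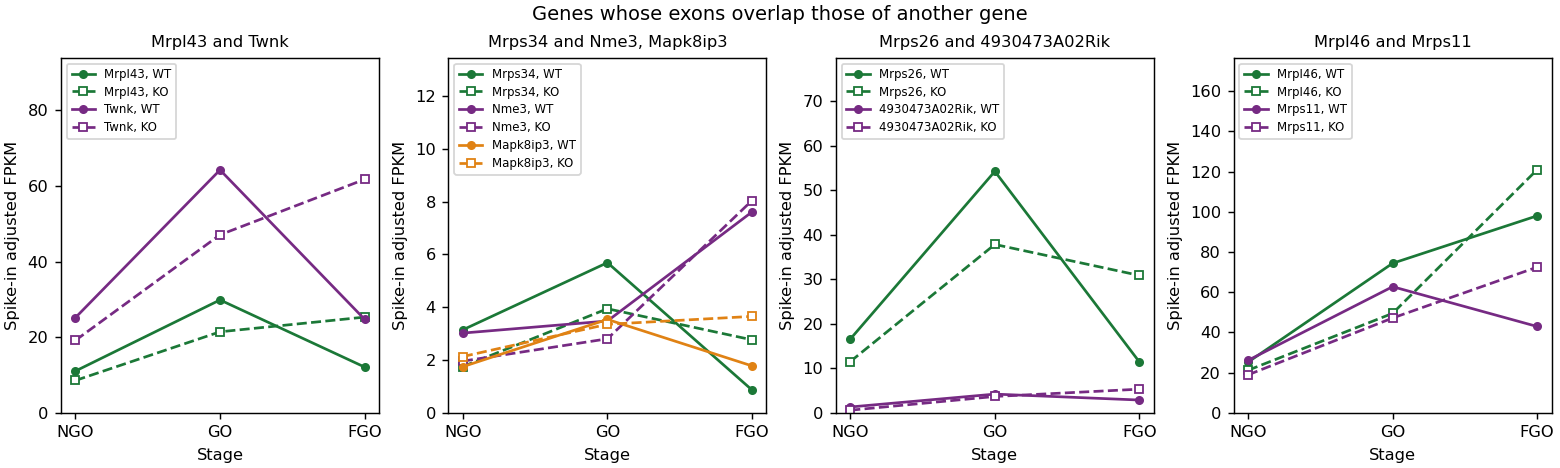
Spike-in adjusted FPKM at NGO, GO and FGO of Mrpl43, Mrps34, Mrps26 and Mrpl46 (green) and of the genes that overlap them (purple and orange), with WT as filled circles and solid lines and KO as open squares and dashed lines. In WT, Mrpl43 and Twnk both peak at GO, as do Mrps34 and Mapk8ip3, and Mrps26 and 4930473A02Rik. Also in WT, Nme3 is highest at FGO, and Mrpl46 and Mrps11 part from GO to FGO.

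Without the members that overlap another gene compared, the count called higher in KO at FGO was 2 in place of 6 (Mrpl4 and Mrps30) and the count called lower from GO to FGO in WT was 0 in place of 3. In all, 20 of the 78 members overlap another gene compared, and 10 share a transcript sequence with another annotated gene (95% identity or higher, 50% of the length or longer). Of the 75 members compared, 18 (24%) have a protein-coding neighbour on the other strand that starts within 1000 bases upstream of them, against 11.8% of genes compared. These starts are those of GENCODE M21, by which Mrpl46 and Mrps11 were not counted as such a pair. Of the neighbours counted, 13 passed the filter on low values. At NGO the median KO to WT difference was -0.36 for these 13 members and 0.01 for their neighbours, at GO -0.38 against -0.14 and at FGO 0.50 against 0.82. In 10 of the 13 pairs at NGO, 9 at GO and 7 at FGO, the member had the lower value. The pairs differ among themselves. Psma2, a proteasome subunit gene that starts 75 bases from Mrpl32, differed by -0.66, -0.65 and 0.30 at NGO, GO and FGO, and Mrpl32 by -0.62, -0.49 and 0.40. Helq, a DNA helicase gene that starts 29 bases from Mrps18c, was at 14.7 FPKM in WT GO and 18.4 FPKM in KO GO, where Mrps18c was at 60.3 and 29.9 FPKM. Sars2, the mitochondrial seryl-tRNA synthetase gene beside Mrps12, was at 2.43 and 5.50 FPKM at GO, where Mrps12 was at 60.9 and 33.7 FPKM. Genes that share a promoter region thus differed in opposite directions at GO in the last 2 pairs.

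The medians of the subunits had the same signs, with that of the small subunit the lower at each stage. At NGO, GO and FGO the median difference was -0.33, -0.37 and 0.54 over 48 large-subunit genes and -0.46, -0.42 and 0.44 over 26 small-subunit genes. Members with a bacterial counterpart (45) had -0.44, -0.43 and 0.50, and those specific to mitochondria (29) had -0.24, -0.36 and 0.55. These 4 groups overlap in their genes, and each lay below the all-gene medians of -0.11, -0.09 and 0.72. Members with an ETS core in the promoter (24 compared) had -0.42, -0.48 and 0.31, and those with a promoter but no ETS core (43) had -0.29, -0.38 and 0.51. At GO all 24 with the core were lower in KO, and 38 of the 43 without it, where 58.3% of genes compared were. Rescaled, 22 of the 24 and 37 of the 43 were below 0 at GO, beside 5339 of the 10110 genes compared. Genes compared that hold an ETS core were not taken as a group, and the part of the motif was not tested.

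By rank correlation, transcript length was weakly related to the differences, though the shortest genes stood apart. Spearman rho of the KO minus WT difference with length was 0.19, 0.22 and 0.31 across members at NGO, GO and FGO. Across genes compared it was 0.25, 0.14 and 0.02, so there was almost no rank correlation at FGO. Genes compared of up to 1000 nt still lay low at FGO, with 78.5% of them below the all-gene median. Of the 75 members of any length, 78.7% were below it. The members' median length was 1223 nt, against 2603 nt for the 95.3% of genes compared that have a length. Among genes of up to 1000 nt, the 29 members had median differences of -0.46, -0.44 and 0.44 at NGO, GO and FGO, and the 826 genes compared in that class had -0.33, -0.44 and 0.41. Short members thus lay close to other short genes at GO and FGO and below them at NGO. From 1000 to 2000 nt the 28 members had -0.23, -0.34 and 0.63 against -0.18, -0.12 and 0.74 for genes. Over 2000 nt the 18 members had -0.31, -0.36 and 0.56 against -0.07, -0.02 and 0.76. In both longer classes the members' median was below that of genes at every stage. The lengths used for Mrps26, Mrpl51 and Mrps16 (4278, 3427 and 2572 nt) exceed the spans of their RefSeq genes, so their class is uncertain. The part of length in the members' difference was not tested.

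Other genes of mitochondrial translation were read from lists. All 5 ribosomal proteins with other names, Dap3, Ptcd3, Chchd1, Aurkaip1 and Gadd45gip1, had the members' pattern of lower at NGO and GO and higher at FGO, with medians of -0.51, -0.43 and 0.55. Gadd45gip1, which is also a large-subunit protein, was at 26.1, 62.7 and 76.7 FPKM in WT and at 15.8, 40.5 and 87.3 FPKM in KO. Dap3, a GTP-binding protein of the small subunit, was at 14.4, 41.5 and 76.1 FPKM in WT and at 13.8, 36.3 and 112 FPKM in KO, closer to WT before FGO.

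Assembly factors, which process ribosomal RNA and help the subunits form, lay near the median gene. Of 30 listed by the table, 26 were compared, with medians of -0.22, -0.10 and 0.77 and 0 called at NGO, 1 lower at GO and 6 higher at FGO (2.03% and 25.8% of all genes compared). The 1 called lower was Gtpbp10, a GTPase of large-subunit assembly, at 9.52 FPKM in WT GO and 4.04 FPKM in KO GO. Rpusd4, which modifies the large ribosomal RNA, was at 84.6 and 42.1 FPKM at GO, a difference of -0.99. Of the 6 called higher at FGO, Eral1, which binds the small ribosomal RNA, differed most, at 8.34 FPKM in WT and 29.0 FPKM in KO. The 15 of 16 translation factors compared had medians of -0.08, -0.16 and 0.79, with 0 called at NGO and GO and 3 higher at FGO (25.8% of all genes), the elongation factors Tufm (1.005), Tsfm (1.07) and Gfm1 (1.16).

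Mitochondrial aminoacyl-tRNA synthetases, which charge the tRNAs for this translation, had medians of the opposite sign to the ribosomal proteins at NGO and GO and of the same sign at FGO. Of the 19 listed, 14 were compared, with medians of 0.05, 0.23 and 0.98 at NGO, GO and FGO. At GO 11 of the 14 were higher in KO by any amount, where 8 of the 75 members and 41.7% of all genes were, and 7 were called higher at FGO, as were 25.8% of all genes. The 1 called lower at GO was Lars2, the leucyl enzyme, at 26.0 FPKM in WT and 10.5 FPKM in KO. Rars2, the arginyl enzyme, was at 1.87, 5.90 and 6.53 FPKM in WT and at 2.01, 8.65 and 20.1 FPKM in KO. Kars and Gars, which serve both cytosol and mitochondria, differed by 0.30 and 0.32 at GO. Many of the synthetase genes had low levels, but Kars, Gars, Fars2 and Lars2 were above the median gene compared in every column. Of these, only Lars2 was lower in KO at GO. No test of the difference between these lists was made.

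Cytosolic ribosomal protein genes, given for scale, had medians of -0.30, -0.47 and 0.38 over the 79 of 85 compared. Beside them, the mitochondrial ribosomal protein genes had -0.36, -0.40 and 0.50, with the same signs and each below the all-gene median too.

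**Figure D5:**
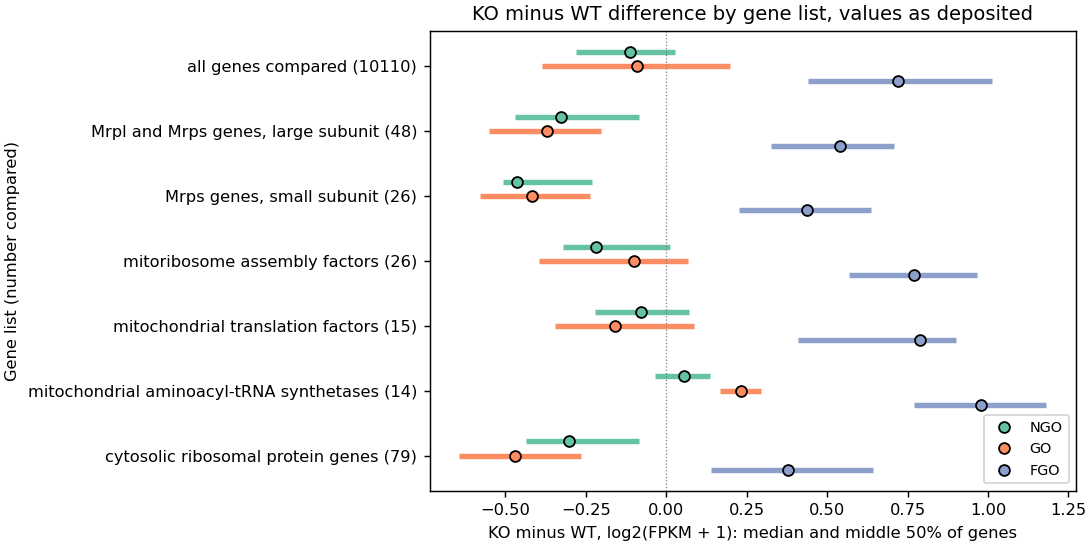
KO minus WT difference at NGO, GO and FGO (colours) for the large and small subunit of the mitochondrial ribosome, other genes of mitochondrial translation, cytosolic ribosomal protein genes and all genes compared, in log2(FPKM + 1) as deposited. Points are medians over genes, bars span the middle 50% of genes and are no error bars, and the number compared follows each name. Synthetases lie to the right of the ribosomal proteins at all 3 stages.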

How the data were processed

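The labels list polyadenylated RNA of 12 samples, 2 for each of 6 groups of mouse oocytes, as Smart-seq2 libraries from 500 pg of cDNA read as 150 bp pairs. The submitters' processing notes name the build mm10 and the tools Cufflinks 2.2.1, HISAT2 2.2.1 and Trim Galore 0.6.7. In the deposited table each group has 1 column of FPKM, adjusted by the authors to the ERCC spike-in. Neither the adjustment formula nor the annotation is given in the sources used here. Read depth is unknown, so the counting error of each value is unknown, and a change of spike-in recovery in 1 column would move every gene of that column alike.

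The table had 25912 lines for 25164 symbols. Lines with spreadsheet error marks (2, no member) were left out, and for 333 symbols on several lines the line with the highest mean was kept, which left 25162 genes. Each member had a single line. The table held 0 mitochondrially encoded genes. Differences were taken on log2(FPKM + 1) for genes averaging 1 FPKM or more and called at 1 or more. Linear models, a replicate block and leaving out samples were planned for the case of 1 column per sample and could not be run with 1 column per group. The members, gene lists, named genes and tests were chosen with earlier results of these data known. Subunit and ancestry classes were written by hand from textbook knowledge.

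Named by rule were the 4 highest and 4 lowest members in each KO to WT difference and each WT step, and the 4 highest and 4 lowest by mean. The rule also names members at 2-fold against the direction of all genes, members listed at 0, those with the largest shifts between stages and a few with a special place, 34 genes in all. Mrpl10, Mrpl19, Mrpl32, Mrpl34, Mrpl37, Mrpl46, Mrpl57, Mrps11, the overlapping and neighbouring genes and the examples from other lists were chosen after their values were seen. Coordinates and promoters are from RefSeq on GRCm38.p6. Transcript lengths are medians over the basic protein-coding transcripts of GENCODE M21, and copies were searched in its transcripts with blastn 2.17.0. Other steps used Python 3.11.15 with numpy 2.4.6, pandas 2.3.3 and matplotlib 3.10.9, and were tested on simulated data. For the median-ratio scaling, each column was divided by the median over genes of its ratio to the geometric mean of the columns. Other alternatives were equal column totals, a pseudocount of 0.1, a stricter filter at a mean of 5 FPKM and no filter.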

Additional observations from a re-analysis of the deposited data

Results flagged for a closer look

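The members' median KO to WT difference had opposite signs at the stages in the values as deposited, -0.36 at NGO and -0.40 at GO but 0.50 at FGO. The median at FGO exceeded that at NGO by 0.86 and that at GO by 0.91 on the log2 scale. With 1 column per group this change was not tested, and the median of all genes changed in the same direction, from -0.11 and -0.09 to 0.72. After median-ratio scaling the members' medians were -0.21, -0.33 and -0.24, with 1 sign at all stages.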

How the results depend on the processing

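Median-ratio scaling gave member medians for KO minus WT of -0.21 at NGO and -0.24 at FGO, the latter a reversal, with 0 members called higher at FGO in place of 6. The steps from NGO to GO then had reversed medians of -0.084 in WT and -0.19 in KO, with 0 called higher in each and 1 lower in WT, and GO to FGO in KO had 0.37, with 2 called higher and 1 lower. Equal column totals gave -0.14, -0.30 and -0.12 for KO minus WT (0 called higher at FGO, where the median was reversed). They gave -0.052 in WT (0 higher, 1 lower) and -0.18 in KO (0 higher) from NGO to GO, both reversed, and 0.070 in WT and 0.23 in KO (1 higher, 2 lower) from GO to FGO. With a pseudocount of 0.1, 3 members were called lower in KO at GO (Mrpl20, Mrps18c and Mrps33) and 3 higher from GO to FGO in WT (Mrpl20, Mrpl53 and Mrps22), and the medians of the KO steps were 1.22 and 1.27. With no filter, with a mean of at least 5 FPKM and under 3 alternatives chosen after the data were seen (leaving out members that overlap another gene compared, members with a copy, or Mrps36) each median stayed within 0.1. Counts stayed within 1.5 times, for example 6 to 5 higher at FGO and 3 to 2 lower from GO to FGO in WT at a mean of 5 FPKM. The exceptions came without the overlapping members, with 2 called higher at FGO and 0 lower from GO to FGO in WT. Of 132 differences of single named members, some moved by 0.1 or more on the log2 scale. These were 65 under median-ratio scaling, 121 under equal totals and 15 with the smaller pseudocount. Called differences between KO and WT, and from GO to FGO in WT, kept their sign. Others did not. Under median-ratio scaling 58 of the 75 members were below 0 at FGO, against 5 as deposited. From NGO to GO in WT 46 were below 0, against 0 as deposited, among them called ones such as Mrpl24 (1.25 to -0.07). Leaving out a sample was not run. No paired analysis was possible because the table has 1 column per group, with no replicate numbers. Without read depth or replicates, the size of a difference that chance could give in a single gene is unknown, most of all for members near 1 FPKM such as Mrps34, Mrpl13 and Mrpl20.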
